A study of Mus musculus with 23 samples.

Results

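Hox genes encode homeodomain transcription factors, and the 39 members of the 4 mouse clusters, Hoxa, Hoxb, Hoxc and Hoxd, were taken by symbol from 22517 named genes, whatever their test status. The Hoxa cluster has 11 of them, Hoxb 10, Hoxc 9 and Hoxd 9. Their RNA was measured in 3 groups of 3 libraries each, from the epithelium of the proximal small intestine of adult mice on a mixed B6;129 background. Eed-null villus came from mice of genotype EedF/F; Villin-CRE, in which Cre under the Villin promoter, active in intestinal epithelium, removes floxed Eed. Wild-type villus, the control, came from EedF/F; Cre- mice and so carries the same floxed alleles. Intestinal stem cells (ISC) were sorted for high GFP from Eed+/+; Lgr5-EGFP-IRES-CREERT2 mice, which have unfloxed Eed. All 9 libraries' mice had been injected with tamoxifen, 1 to 2 mg on 5 consecutive days, and the labels used here give neither the exact age nor the sex. Presence of Cre and absence of Eed cannot be told apart between the villus groups, nor can cell type and sorting between villus and ISC.

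Hox genes stand in chromosomal order, and paralogs with the same number in different clusters descend from a common ancestral gene. Low-numbered (anterior) genes are active in the hindbrain and neck of the embryo, and high-numbered (posterior) genes in its tail end, hindgut, limbs and genital tract. Hox clusters are the textbook targets of the Polycomb group: Polycomb repressive complex 2 (PRC2), of which Eed is a core subunit, places the histone mark H3K27me3 over the silent part of each cluster, and Trithorax group complexes with the MLL enzymes keep the active part on. In the gut, Hox proteins of the mesenchyme and the epithelium mark position along its length, with the highest-numbered genes at the rectal end.

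On build mm9, with a start convention that is not stated, the Hoxa genes span 105.5 kb of chromosome 6. Hoxb genes span 96055674 to 96229567 of chromosome 11, the longest cluster at 173.9 kb. Hoxc genes lie between 102751561 and 102867283 of chromosome 15, over 115.7 kb, and Hoxd genes between 74506366 and 74603199 of chromosome 2, over 96.83 kb. For 8 members, Hoxa3, Hoxa4, Hoxa5, Hoxa6, Hoxa11, Hoxc5, Hoxd3 and Hoxd4, the locus entry is shared with another gene, so reads could have been split among them and their values are uncertain. The libraries do not mark strand, so Hoxa11 and its antisense RNA Hoxa11as cannot be told apart where they overlap.

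Promoter sequences of RefSeq on build GRCm38.p6, 250 bases before to 50 bases after each start, matched 22 of the 39 genes with 24 promoters. CpG, the dinucleotide that carries DNA methylation in mammals and is dense at many Polycomb targets, occurred a median of 14.5 times in the Hox promoters (range 4 to 45), against 7 times in all 32851 promoters. The median ratio of observed to expected CpG was 0.626 in the Hox promoters and 0.384 in all promoters. Among the Hox genes, the median was 13.5 CpG over the 6 promoters of genes called higher in Eed-null villus, which cover 5 of the 12 called genes, all in Hoxa or Hoxd, and 17 over the 18 other promoters, and the ranges, 4 to 45 over the called genes and 4 to 37 over the others, overlapped. Below are promoters of a called gene at the top of the CpG range, Hoxa13 (chr6:52260831-52261130, minus strand), a called gene at its foot, Hoxd4 (chr2:74721728-74722027, plus strand), and a gene listed at 0 in both villus groups, Hoxd12 (chr2:74674763-74675062, plus strand). They are shown 5′ to 3′ with each CpG in capitals.
Hoxa13: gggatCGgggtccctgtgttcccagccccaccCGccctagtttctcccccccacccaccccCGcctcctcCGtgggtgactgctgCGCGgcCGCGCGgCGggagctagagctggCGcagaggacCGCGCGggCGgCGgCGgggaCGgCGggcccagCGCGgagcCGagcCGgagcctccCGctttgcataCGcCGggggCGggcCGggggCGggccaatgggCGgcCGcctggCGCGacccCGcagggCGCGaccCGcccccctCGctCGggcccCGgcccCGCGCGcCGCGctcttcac
Hoxd4: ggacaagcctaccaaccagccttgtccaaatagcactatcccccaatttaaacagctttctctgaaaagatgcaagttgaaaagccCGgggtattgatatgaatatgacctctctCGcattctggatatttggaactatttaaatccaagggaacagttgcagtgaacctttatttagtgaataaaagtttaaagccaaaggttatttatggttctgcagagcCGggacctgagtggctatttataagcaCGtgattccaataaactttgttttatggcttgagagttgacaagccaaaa
Hoxd12: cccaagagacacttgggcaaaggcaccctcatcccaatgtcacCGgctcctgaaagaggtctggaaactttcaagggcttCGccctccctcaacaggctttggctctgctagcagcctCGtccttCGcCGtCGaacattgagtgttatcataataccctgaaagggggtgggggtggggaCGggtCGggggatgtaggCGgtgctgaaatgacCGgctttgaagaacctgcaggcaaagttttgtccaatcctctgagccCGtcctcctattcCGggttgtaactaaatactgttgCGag
Hoxa13 has 45 CpG, more than 98.1% of all promoters, Hoxd12 has 13, more than 62.1%, and Hoxd4 has 4, more than 31.4%. The letters TTTATNG, read also as CNATAAA for the other strand, the kind of site that posterior Hox proteins bind, occurred in 2 of the 24 Hox promoters (8.33%), those of Hoxd4 and Hoxb8 with 3 matches each. All promoters of the same length held the letters in 10.9% of cases, and such a match is not evidence of binding.

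MicroRNA genes of the miR-10 and miR-196 families lie inside the clusters, and they fall into families by their seed, bases 2 to 8 of the mature strand, which pairs with target RNAs. Hox messenger RNAs are among the known targets of miR-196. The mature RefSeq sequences are shown 5′ to 3′ with the seed in capitals, because Mir196b and Mir196a-1 have high listed values within the clusters, given below, whereas Mir10a and Mir10b are listed at 0.
miR-196a-5p: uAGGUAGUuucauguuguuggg
miR-196b-5p: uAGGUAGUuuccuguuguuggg
miR-10a-5p: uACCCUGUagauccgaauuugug
miR-10b-5p: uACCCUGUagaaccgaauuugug
The strands of Mir196a-1 in Hoxb (chr11:96265187-96265208, plus strand) and Mir196b in Hoxa (chr6:52230129-52230150, minus strand) share the seed AGGUAGU. Those of Mir10a in Hoxb (chr11:96317186-96317208, plus strand) and Mir10b in Hoxd (chr2:74726074-74726096, plus strand) share ACCCUGU.

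The authors' deposited tables give 1 value per group and gene in RPKM, which scales reads by gene length and by mapped reads, so levels of different genes are on a per-length scale. The header of the Eed-null table names no unit, and RPKM was inferred there from its wild-type villus values, which are a constant fraction of those in the other table. No value per library, no spread and no depth is given, and the authors' q, an adjusted p-value over all tested genes, is the only measure of error. Below, called means tested by the authors with a q of at most 0.05. Eed itself had 3.00 RPKM in Eed-null villus against 9.17 RPKM in wild-type villus (q = 6.29e-06 in the authors' deposited table). Enterocyte markers had the highest sum of the marker lists in both villus groups, 16632 RPKM in Eed-null villus against 20095 RPKM in wild-type villus, and the 4 stem cell markers summed to 118.2 RPKM in wild-type villus and 3085 RPKM in ISC. Over genes with at least 1 RPKM in each group of a pair, the median log2 ratio of Eed-null to wild-type villus was -0.10 over 10048 genes, and that of wild-type villus to ISC was 0.02 over 9854 genes.

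In Eed-null villus, genes of all 4 clusters rose, 8 of them posterior and 4 central, and Hoxb13 rose most. For Hoxd this rests on Hoxd4 alone, whose locus entry is shared with other genes and whose value is therefore uncertain. By q in the authors' deposited table, 12 of the 15 tested Hox genes were called higher in Eed-null villus and 0 lower, where 7.90% of all 12525 tested genes were called higher and 3.46% lower. The count must be read with the test's floor: no gene under 0.351 RPKM in both groups was tested, and all 39 Hox genes were under that level in wild-type villus. A Hox gene could thus be tested only where it was high in Eed-null villus, and among all genes in that position 373 of 743, or 50.2%, were called higher. The 24 untested members are therefore described by their values, and no test across the members is given.

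Taken by value alone, 35 of the 39 genes were listed higher in Eed-null villus, 2 lower and 2 at 0 in both. That is 89.7% of the Hox genes, against 41.1% of the 10678 named genes that were under 0.351 RPKM in wild-type villus. The median Hox level was 0.246 RPKM in Eed-null villus against 0.0154 RPKM in wild-type villus, and the median difference of log2(RPKM + 1) was 0.27, against 0.00 over all named genes. At 1 RPKM or more there were 7 Hox genes in Eed-null villus (17.9% of the 39) and 0 in wild-type villus; of the 10678 low genes, 190 (1.78%) reached that level in Eed-null villus. These 7 were Hoxa10, Hoxa13, Hoxb6, Hoxb7, Hoxb9, Hoxb13 and Hoxc11. The sum over the 39 genes was 108.5 RPKM in Eed-null villus against 2.02 RPKM in wild-type villus, and Hoxb13 alone made up 75.8% of the Eed-null sum. Without it the sum was 26.3 RPKM in Eed-null villus against 1.92 RPKM in wild-type villus. In bulk RNA, more cells that express a gene and more RNA per cell cannot be told apart.

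**Figure D1:**
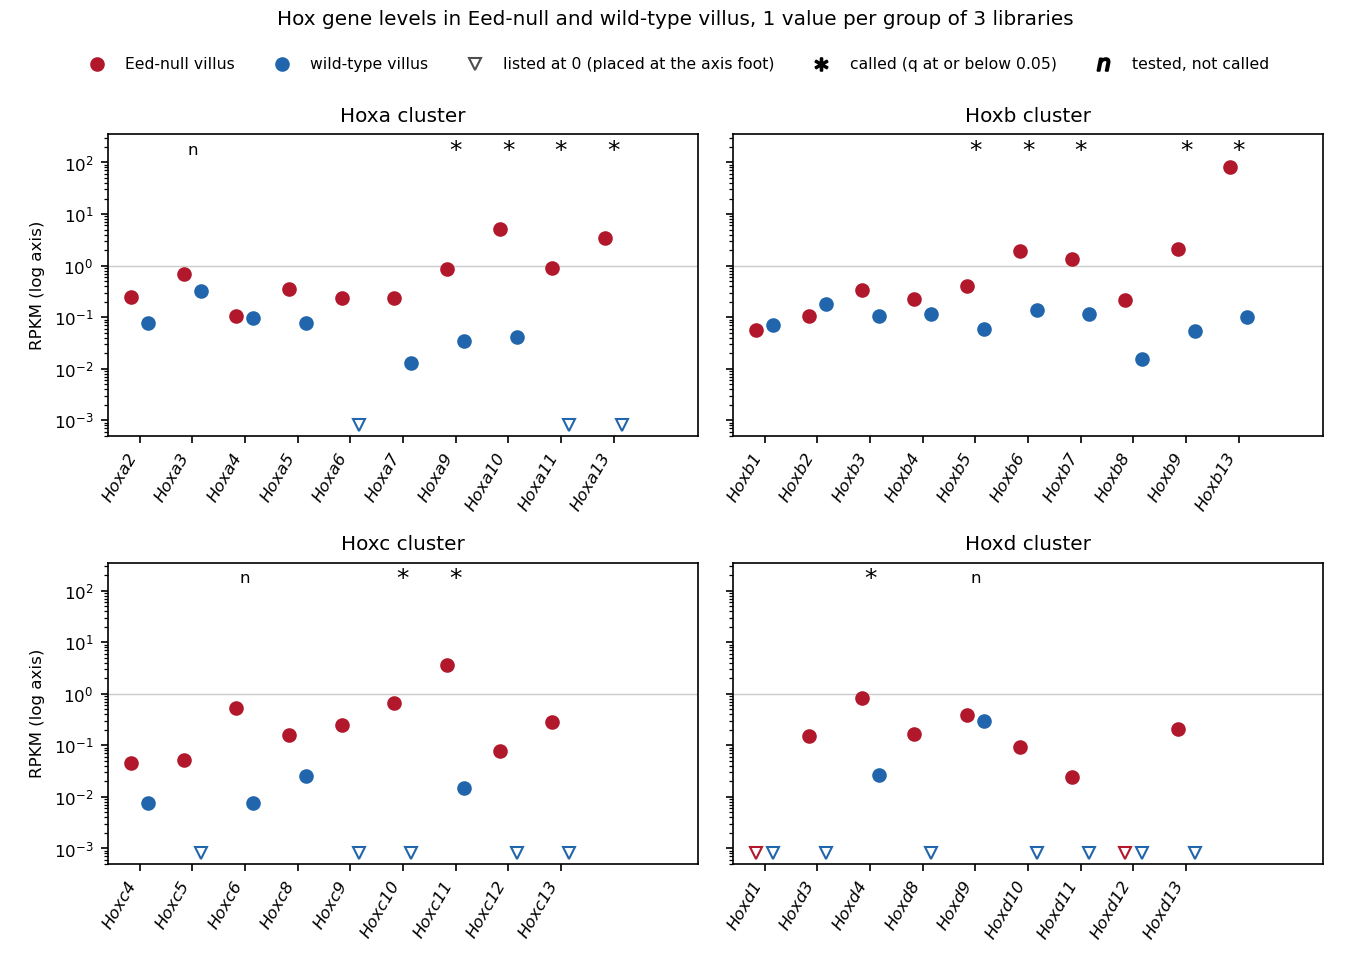
Levels of 38 Hox genes in Eed-null villus and wild-type villus, 1 panel per cluster with genes along the horizontal axis and RPKM on a log vertical axis. Each point is the authors' value for a group of 3 libraries; open triangles at the foot are listed at 0, stars mark called genes and n marks genes tested and not called. Hoxb13 stands at 82.3 RPKM, and no wild-type villus point passes 0.323 RPKM.

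Among the posterior genes, paralogs 9 to 13, 9 of 16 were tested and 8 of these rose. They could be tested only where high in Eed-null villus, a position in which 50.2% of all tested genes were called higher. Hoxb13, which in other tissues marks the tail end of the trunk, the rectum and the prostate, had 82.3 RPKM in Eed-null villus against 0.0991 RPKM in wild-type villus, an 830-fold difference with p and q both listed as 0 in the authors' deposited table. It lies at the posterior end of its cluster, from 96055674 to 96057913 on chromosome 11. Hoxa13, needed for the limb tip, the hindgut and the genital tract, had 3.43 RPKM in Eed-null villus against a listed 0 in wild-type villus (q = 1.02e-06 in the authors' deposited table). Hoxc13, known for its role in hair and nails, and Hoxd13, a limb and hindgut gene, were too low to be tested. Both are listed at 0 in wild-type villus, with Eed-null levels of 0.278 RPKM for Hoxc13 and 0.205 RPKM for Hoxd13 and unadjusted p = 0.000189 and p = 0.000215 in the authors' deposited table. All 4 paralogs 13 thus had the higher value without Eed, but their Eed-null levels differed widely, with Hoxb13 far above Hoxa13 and Hoxa13 above the others.

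Paralogs 11 and 10 shape the lower spine and the limbs and, for Hoxa10 and Hoxa11, the uterus. Hoxc11 had 3.54 RPKM in Eed-null villus against 0.0152 RPKM in wild-type villus (234-fold; q = 0.0288 in the authors' deposited table). Hoxa11 had 0.883 RPKM in Eed-null villus against a listed 0 in wild-type villus (q = 0.00362 in the authors' deposited table). Hoxd11 was untested, at 0.0245 RPKM in Eed-null villus and listed at 0 in wild-type villus. Of the paralogs 10, Hoxa10 was the highest Hox gene after Hoxb13: 5.08 RPKM in Eed-null villus against 0.0422 RPKM in wild-type villus (120-fold; q = 2.41e-08 in the authors' deposited table). Hoxc10, a hindlimb and lumbar gene, had 0.665 RPKM in Eed-null villus against a listed 0 in wild-type villus (q = 0.000249 in the authors' deposited table). Hoxd10, which acts in lumbar motor neurons, was untested at 0.0932 RPKM in Eed-null villus against a listed 0 in wild-type villus. At both numbers the Hoxa and Hoxc members were called and the Hoxd member stayed too low to test.

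Of the paralogs 9, which act in trunk patterning and, for Hoxa9, in blood stem cells, Hoxb9 and Hoxa9 rose. Hoxb9 had 2.09 RPKM in Eed-null villus against 0.0531 RPKM in wild-type villus (39.4-fold; q = 1.52e-09 in the authors' deposited table). Hoxa9 had 0.849 RPKM in Eed-null villus against 0.0341 RPKM in wild-type villus (24.9-fold; q = 0.000326 in the authors' deposited table). Hoxd9 was tested and not called, at 0.395 RPKM in Eed-null villus against 0.299 RPKM in wild-type villus (q = 0.782 in the authors' deposited table); it was the second-highest Hox gene of wild-type villus after Hoxa3. Hoxc9, which sets the thoracic identity of motor neurons, was untested, at 0.246 RPKM in Eed-null villus and 0 in wild-type villus, with unadjusted p = 0.000649 in the authors' deposited table. Paralogs 12 had the lowest sum of the posterior numbers: Hoxc12 had 0.0782 RPKM in Eed-null villus and 0 in wild-type villus and Hoxd12 is listed at 0 in both.

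Central genes, paralogs 4 to 8, pattern the neck, chest and forelimb level. Of 15 such genes 5 were tested and 4 rose, 3 of them neighbours in the Hoxb cluster. These too were tested only where high in Eed-null villus, and of all tested genes so placed 50.2% were called higher. Hoxb6 had 1.89 RPKM in Eed-null villus against 0.137 RPKM in wild-type villus (13.8-fold; q = 1.83e-05 in the authors' deposited table). Hoxb7 had 1.32 RPKM in Eed-null villus against 0.114 RPKM in wild-type villus (11.6-fold; q = 0.000577 in the authors' deposited table). Hoxb5, which acts in the neural crest that forms the gut's nerves, had 0.395 RPKM in Eed-null villus against 0.0603 RPKM in wild-type villus (6.55-fold; q = 0.0348 in the authors' deposited table). Hoxd4, a gene of the hindbrain and upper spine, had 0.834 RPKM in Eed-null villus against 0.0265 RPKM in wild-type villus (31.5-fold; q = 0.000747 in the authors' deposited table). It is the single called gene of the Hoxd cluster, and its locus entry from 74548100 to 74586328 on chromosome 2 is shared with Hoxd3, Mir10b and 1700109F18Rik. Hoxc6 was tested and not called at 0.527 RPKM in Eed-null villus against 0.00777 RPKM in wild-type villus (q = 0.135 in the authors' deposited table). The other central genes were untested: Eed-null levels ran from 0.0448 RPKM for Hoxc4 to 0.346 RPKM for Hoxa5, a gene of lung development. Of all 24 untested Hox genes, 11 had an unadjusted p under 0.05 in the authors' deposited table. No share over all untested genes is given beside this count, so it is not read as a result about Hox genes. Of these 11, Hoxb8, which acts in blood-derived cells and the spine, had 0.216 RPKM in Eed-null villus against 0.0154 RPKM in wild-type villus, with unadjusted p = 0.00941 in the authors' deposited table. Hoxa7 had 0.241 RPKM in Eed-null villus against 0.0127 RPKM in wild-type villus, with unadjusted p = 0.0237 in the authors' deposited table. Hoxd8 had 0.168 RPKM in Eed-null villus against a listed 0 in wild-type villus, with unadjusted p = 0.00762 in the authors' deposited table. Hoxc8, a thoracic and brachial gene, had 0.161 RPKM in Eed-null villus against 0.0252 RPKM in wild-type villus. All 15 central genes had the higher value in Eed-null villus, by the least for Hoxa4, at 0.104 RPKM in Eed-null villus against 0.0945 RPKM in wild-type villus.

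Anterior genes, paralogs 1 to 3, act in the hindbrain, the face and the throat organs. Of 8 such genes Hoxa3, needed for the thymus and parathyroid glands, was the tested one and was not called, at 0.698 RPKM in Eed-null villus against 0.323 RPKM in wild-type villus (q = 0.233 in the authors' deposited table). Hoxb3, a hindbrain gene, was untested at 0.336 RPKM in Eed-null villus against 0.107 RPKM in wild-type villus. Hoxb1 and Hoxb2, both genes of hindbrain segments and their nerves, had lower values without Eed and were untested. Hoxb1 had 0.0576 RPKM in Eed-null villus against 0.0691 RPKM in wild-type villus, and Hoxb2 had 0.107 RPKM in Eed-null villus against 0.183 RPKM in wild-type villus. Hoxd1 is listed at 0 in both villus groups. Hoxa2, which acts in the developing face, had 0.246 RPKM in Eed-null villus against 0.0774 RPKM in wild-type villus, and Hoxd3 had 0.152 RPKM in Eed-null villus against a listed 0 in wild-type villus; both were untested.

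**Figure D2:**
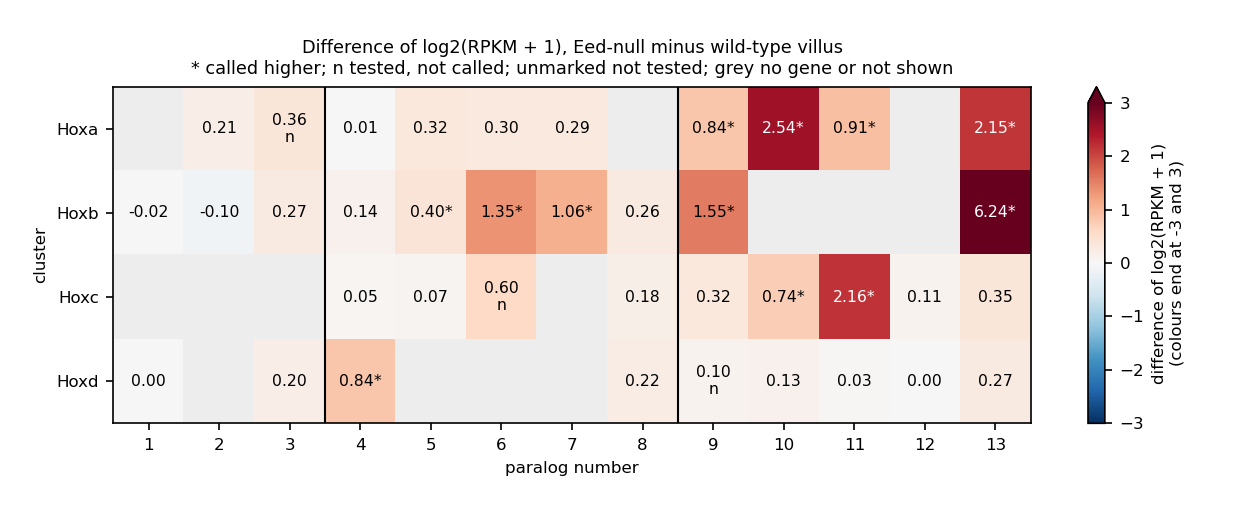
Difference of log2(RPKM + 1) between Eed-null and wild-type villus for 38 Hox genes, by cluster (rows) and paralog number (columns), from 1 value per group; red is higher in Eed-null villus, and vertical lines part the anterior, central and posterior numbers. Stars mark called genes, n marks genes tested and not called, unmarked genes were not tested, and grey cells have no gene or are not shown. Differences run from -0.10 for Hoxb2 to 6.24 for Hoxb13.

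By paralog class, the sum over the 16 posterior genes was 100.1 RPKM in Eed-null villus against 0.543 RPKM in wild-type villus. Leaving out Hoxb13 put the posterior sums at 17.9 RPKM in Eed-null villus against 0.444 RPKM in wild-type villus. The 15 central genes summed to 6.76 RPKM in Eed-null villus against 0.692 RPKM in wild-type villus, and the 8 anterior genes to 1.67 RPKM in Eed-null villus against 0.785 RPKM in wild-type villus. In wild-type villus the anterior sum was thus the highest of the 3 classes, whereas in Eed-null villus it was the lowest. The median difference of log2(RPKM + 1) was 0.54 over the posterior, 0.29 over the central and 0.13 over the anterior genes. The difference between the classes was not tested, because members of a cluster are neighbours and not replicates. By single number, paralogs 13 summed to 86.2 RPKM in Eed-null villus against 0.0991 RPKM in wild-type villus, paralogs 10 to 5.83 RPKM in Eed-null villus against 0.0422 RPKM in wild-type villus, and paralogs 11 to 4.45 RPKM in Eed-null villus against 0.0152 RPKM in wild-type villus. Paralogs 1, 2 and 12 stayed under 0.4 RPKM in sum in either villus group, with 0.353 RPKM in Eed-null villus for the paralogs 2 as the highest of these sums.

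By cluster, Hoxb had the highest sum, 88.9 RPKM in Eed-null villus against 0.951 RPKM in wild-type villus, and all 5 of its tested genes were called higher. Without Hoxb13 its sums were 6.64 RPKM in Eed-null villus against 0.852 RPKM in wild-type villus, which puts it below Hoxa. The Hoxa genes summed to 12.2 RPKM in Eed-null villus against 0.686 RPKM in wild-type villus, with 4 of 5 tested genes called higher. Hoxc summed to 5.60 RPKM in Eed-null villus against 0.0557 RPKM in wild-type villus, with 2 of 3 tested genes called, and Hoxd to 1.87 RPKM in Eed-null villus against 0.326 RPKM in wild-type villus, with 1 of 2 tested genes called. The counts per cluster depend on the test's floor, since a Hox gene was tested only where high in Eed-null villus. Of all tested genes in that position 50.2% were called higher. In wild-type villus nearly all of the Hoxd sum was Hoxd9. Within clusters the high genes were not evenly placed: in Hoxa the called genes Hoxa9, Hoxa10, Hoxa11 and Hoxa13 are the 4 at the posterior end, while in Hoxd the posterior genes Hoxd9 to Hoxd13 were all at or under 0.395 RPKM in Eed-null villus and Hoxd4 stood above them.

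Several lists of other genes bear on the origin of Hox RNA, because mesenchyme of the gut wall also expresses Hox genes. Of 13 mesenchyme markers, 11 had the higher value in Eed-null villus and 1 the lower, with sums of 2.99 RPKM in Eed-null villus against 1.84 RPKM in wild-type villus. Both tested markers, Vim and Pdgfrb, were not called. The collagen genes Col1a1, Col1a2, Col3a1 and Col6a1 had 0.0300 to 0.207 RPKM in Eed-null villus and 0.0121 to 0.0893 RPKM in wild-type villus. Each of them was untested and had the higher value in Eed-null villus, and Lum is listed at 0 in both. The 6 nerve or glia markers, none of them tested, summed to 0.521 RPKM in Eed-null villus against 0.204 RPKM in wild-type villus, with Sox10 among those listed at 0 in both. Leukocyte markers summed to 56.8 RPKM in Eed-null villus against 80.4 RPKM in wild-type villus, with 0 of 6 tested called, and endothelium markers to 0.371 RPKM in Eed-null villus against 0.920 RPKM in wild-type villus. The lower endothelium sum came from the receptor gene Tek, called lower at 0.191 RPKM in Eed-null villus against 0.762 RPKM in wild-type villus. The other 3 of the 4 endothelium markers were untested and had the higher value in Eed-null villus. The part of such cells in the Hox values was not tested.

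Regional markers of the gut were called in both directions, and their relation to the Hox genes was not tested. Over all tested genes, 7.90% were called higher and 3.46% lower. Of 7 colon and rectum markers with a value, 5 were listed higher in Eed-null villus and 1 lower. Of these 7 markers 6 were tested, and 3 were called higher: the water channel gene Aqp8, the acute-phase gene Saa1 and the mucin gene Muc2. Aqp8 had 12.8 RPKM in Eed-null villus against 3.39 RPKM in wild-type villus (q = 1.03e-07 in the authors' deposited table). Saa1 had 32.4 RPKM in Eed-null villus against 4.66 RPKM in wild-type villus (q = 1.43e-10 in the authors' deposited table), and Muc2 had 127 RPKM in Eed-null villus against 75.3 RPKM in wild-type villus (q = 0.0346 in the authors' deposited table). All 3 genes were already above 1 RPKM in wild-type villus of the small intestine, so they are not particular to colon and rectum. Car1, a colonic carbonic anhydrase, is listed at 0 in both villus groups. Of 4 ileum markers, all tested, 2 had the higher value in Eed-null villus and were not called. The other 2 were called lower, the bile acid genes Fabp6 and Slc10a2. Fabp6 had 251 RPKM in Eed-null villus against 1444 RPKM in wild-type villus (q listed as 0 in the authors' deposited table). Slc10a2 had 8.65 RPKM in Eed-null villus against 23.9 RPKM in wild-type villus (q = 9.17e-07 in the authors' deposited table). Of 6 proximal small intestine markers Cybrd1 and Pdx1 were called higher and Lct lower. A difference in the stretch of gut sampled was not tested.

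The 3 nearest named genes on either side of each cluster give 24 neighbours, of which 17 were tested, 2 called higher and 0 called lower, beside 7.90% higher and 3.46% lower among all tested genes. Evx1, a homeobox gene linked to the posterior end of Hoxa that shares its locus entry with 5730457N03Rik, had 0.527 RPKM in Eed-null villus against 0.01004 RPKM in wild-type villus (q = 0.0329 in the authors' deposited table). Ttll6, next to Hoxb13, had 0.541 RPKM in Eed-null villus against 0.0632 RPKM in wild-type villus (8.55-fold; q = 0.000215 in the authors' deposited table). Both lie beyond the Hox13 end, at 47.5 kb from Hoxa13 for Evx1 and 28.9 kb from Hoxb13 for Ttll6. Both were also under 0.351 RPKM in wild-type villus, a position in which 50.2% of all tested genes were called higher. Among the 15 neighbours tested and not called, Hibadh had 24.4 RPKM in Eed-null villus against 27.4 RPKM in wild-type villus, Skap2 had 31.0 RPKM in Eed-null villus against 22.5 RPKM in wild-type villus, and Mtx2 had 37.0 RPKM in Eed-null villus against 36.4 RPKM in wild-type villus. Evx2, the relative of Evx1 beside Hoxd13, was untested at 0.0101 RPKM in Eed-null villus and 0 in wild-type villus.

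Inside the spans there are 11 other named entries, of which 6 were tested and 1 was called higher. The shares called higher were 7.90% of all tested genes and 50.2% of tested genes under 0.351 RPKM in wild-type villus. Gm53, between Hoxb13 and Hoxb9 at 96112973 to 96125798 of chromosome 11, had 10.8 RPKM in Eed-null villus against 0.269 RPKM in wild-type villus (40.2-fold; q = 3.12e-08 in the authors' deposited table). Its Eed-null level was below that of Hoxb13 and above that of Hoxb9. Mir196a-1 and Mir196b had the highest listed values of all entries in the clusters in Eed-null villus, and neither was called. Mir196a-1, also between Hoxb13 and Hoxb9, had 100.4 RPKM in Eed-null villus against 4.46 RPKM in wild-type villus (q = 0.351 in the authors' deposited table). Mir196b, between Hoxa10 and Hoxa9, had 91.4 RPKM in Eed-null villus against 11.6 RPKM in wild-type villus (q = 0.576 in the authors' deposited table). Such short genes turn few reads into a high RPKM, and libraries of polyadenylated RNA do not measure the mature strands printed above. Mir10a, Mir10b, Mir196a-2 and Mir615 are listed at 0 in both villus groups. Hoxa11as had 1.96 RPKM in Eed-null villus against 0.00660 RPKM in wild-type villus and was not called (q = 0.333 in the authors' deposited table).

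Among Hox cofactors and regulators, a few cofactor and retinoic acid genes rose, and most subunits of the chromatin complexes were not called. TALE homeodomain proteins (Pbx, Meis, Pknox and Tgif) bind DNA together with Hox proteins or compete for their sites. Of 11 such genes 9 were tested and 2 rose. Meis3 had 3.25 RPKM in Eed-null villus against 0.2999 RPKM in wild-type villus (10.9-fold; q = 1.66e-10 in the authors' deposited table). Meis2 had 6.50 RPKM in Eed-null villus against 1.01 RPKM in wild-type villus (6.43-fold; q = 5.32e-11 in the authors' deposited table). The retinoic acid and Gdf11 list covers signals that set Hox domains in the embryo; of 13 genes 8 were tested, 4 rose and 1 fell. Cyp26b1, which degrades retinoic acid, had 2.18 RPKM in Eed-null villus against 0.0467 RPKM in wild-type villus (q = 4.03e-14 in the authors' deposited table). The receptor gene Rarg had 2.61 RPKM in Eed-null villus against 0.352 RPKM in wild-type villus (q = 2.57e-09 in the authors' deposited table). Its relative Rarb had 0.860 RPKM in Eed-null villus against 0.174 RPKM in wild-type villus (q = 0.000262 in the authors' deposited table). Aldh1a2, which makes retinoic acid, also rose, at 0.392 RPKM in Eed-null villus against 0.0166 RPKM in wild-type villus (q = 0.0271 in the authors' deposited table). Aldh1a1, another enzyme of that step, fell to 94.1 RPKM in Eed-null villus, against 318.7 RPKM in wild-type villus (q = 2.70e-10 in the authors' deposited table).

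Caudal and ParaHox genes are homeobox relatives of the Hox genes, and some of them set gut identity. Of 6 listed genes 3 were tested. Cdx2, the master regulator of intestinal identity, fell to 31.1 RPKM in Eed-null villus, against 61.0 RPKM in wild-type villus (q = 0.000487 in the authors' deposited table). Pdx1, a duodenal and pancreatic gene, rose to 20.3 RPKM in Eed-null villus, against 9.46 RPKM in wild-type villus (q = 0.0195 in the authors' deposited table). Cdx1 was not called at 32.3 RPKM in Eed-null villus against 38.8 RPKM in wild-type villus, and Cdx4, Gsx1 and Gsx2 are listed at 0 in both. All 9 Trithorax and MLL complex genes were tested; Ash2l and Dpy30, shared subunits of the MLL enzymes, fell, and the other 7 were not called. Ash2l had 10.2 RPKM in Eed-null villus against 19.3 RPKM in wild-type villus (q = 0.0145 in the authors' deposited table). Dpy30 had 12.6 RPKM in Eed-null villus against 24.7 RPKM in wild-type villus (q = 0.0281 in the authors' deposited table). Kmt2a, which encodes the MLL enzyme best known for Hox control, was not called at 2.40 RPKM in Eed-null villus against 3.30 RPKM in wild-type villus. Of 10 tested PRC2 genes, Eed alone was called. These lists were counted against the same shares of all tested genes, 7.90% higher and 3.46% lower. Meis3, Cyp26b1, Rarb and Aldh1a2 were under 0.351 RPKM in wild-type villus and could be tested only where high in Eed-null villus. Among all tested genes in that position, 50.2% were called higher.

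**Figure D3:**
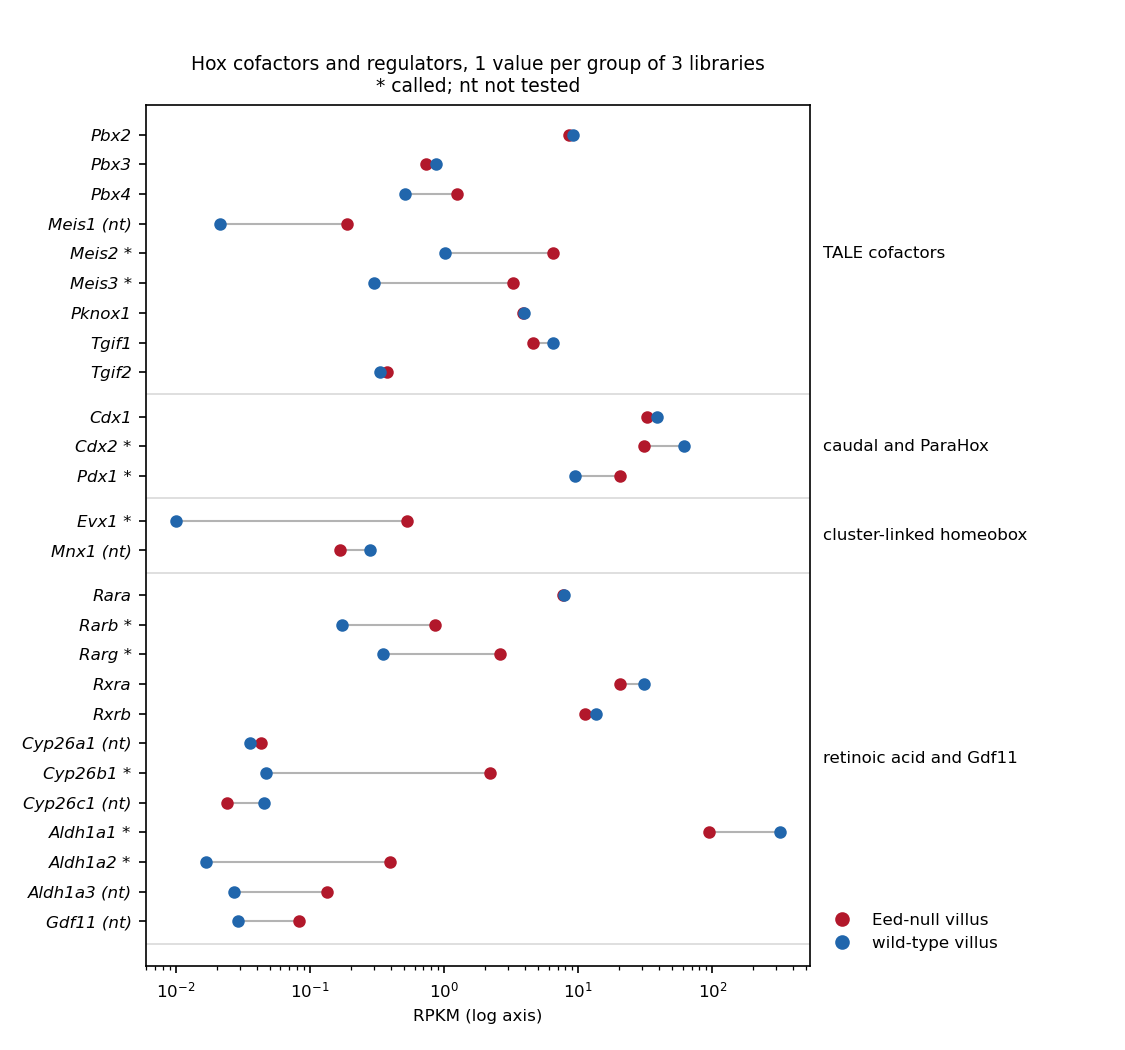
Levels of Hox cofactors and regulators in Eed-null villus and wild-type villus, with genes down the page by list and RPKM on a log horizontal axis. Each point is the authors' value for a group of 3 libraries, genes listed at 0 in a group are not drawn, stars mark called genes and nt marks genes that were not tested. Cdx2 and Aldh1a1 lie lower in Eed-null villus, and Cyp26b1, Meis3, Meis2 and Rarg lie higher.

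Between wild-type villus and ISC, Hoxb2, Hoxb3 and Hoxb4 were lower in villus, and posterior genes other than Hoxd9 stood at or under 0.158 RPKM in both. By q in the authors' deposited table, 3 of the 6 tested Hox genes were called lower in villus and 0 higher, where 32.3% of 13007 tested genes were called lower and 30.5% higher. Here too the floor matters: no gene under 0.246 RPKM in both groups was tested, and among tested genes under that level in villus 61.2% were called lower. Hoxb2 stood at 0.212 RPKM in villus against 1.55 RPKM in ISC, 7.31-fold higher in ISC (q = 3.72e-05 in the authors' deposited table). Hoxb3 stood at 0.125 RPKM in villus against 0.642 RPKM in ISC, 5.15-fold higher in ISC (q = 0.00204 in the authors' deposited table). Hoxb4, known from blood stem cells, stood at 0.132 RPKM in villus against 0.448 RPKM in ISC, 3.397-fold higher in ISC (q = 0.0204 in the authors' deposited table). These 3 genes are neighbours toward the anterior end of Hoxb, and none of them was called in Eed-null villus, where they were untested.

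The other tested genes were not called. Hoxa7 stood at 0.0147 RPKM in villus against 0.246 RPKM in ISC (q = 0.0537 in the authors' deposited table). Hoxb7 stood at 0.132 RPKM in villus against 0.397 RPKM in ISC (q = 0.152 in the authors' deposited table). Hoxa3, the highest Hox gene of villus, stood at 0.375 RPKM in villus against 0.461 RPKM in ISC (q = 0.723 in the authors' deposited table). By value alone, 16 Hox genes were lower in villus, 10 were higher and 13 are listed at 0 in both, which gives 41.0% lower in villus, against 40.5% of all named genes. The lower values lay in Hoxa, where 8 of 11 genes were lower in villus, and in Hoxb, with 7 of 10. Again with no background share, 3 of 33 untested Hox genes had an unadjusted p under 0.05, Hoxb1, Hoxb13 and Hoxd9. Hoxd9 had the highest villus value of them, 0.348 RPKM in villus and listed at 0 in ISC, with unadjusted p = 0.000125 in the authors' deposited table.

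Sums over the Hox genes were 2.35 RPKM in villus against 5.27 RPKM in ISC. Anterior genes summed to 0.912 RPKM in villus against 2.90 RPKM in ISC, and central genes to 0.804 RPKM in villus against 2.02 RPKM in ISC. Posterior genes summed to 0.631 RPKM in villus against 0.343 RPKM in ISC, and none of them was tested. The higher posterior sum in villus rested on Hoxd9, with 0.348 RPKM in villus and a listed 0 in ISC. By cluster, Hoxb had the highest sum in both groups, with 1.11 RPKM in villus against 3.48 RPKM in ISC, followed by Hoxa with 0.798 RPKM in villus against 1.76 RPKM in ISC. Hoxc summed to 0.0647 RPKM in villus against 0.0191 RPKM in ISC, and Hoxd to 0.378 RPKM in villus against 0.00218 RPKM in ISC. The Hoxd sum in villus was nearly all Hoxd9. Hoxb13, the highest gene of Eed-null villus, had 0.115 RPKM in villus against a listed 0 in ISC. Markers of other cells moved too: Vim, a mesenchyme marker, stood at 1.36 RPKM in villus against 7.72 RPKM in ISC and was called lower in villus, whereas the other mesenchyme markers were at or under 0.306 RPKM in both groups. The 7 leukocyte markers summed to 93.4 RPKM in villus against 22.1 RPKM in ISC, and 5 were called higher in villus. Their part in the Hox values was not tested.

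**Figure D4:**
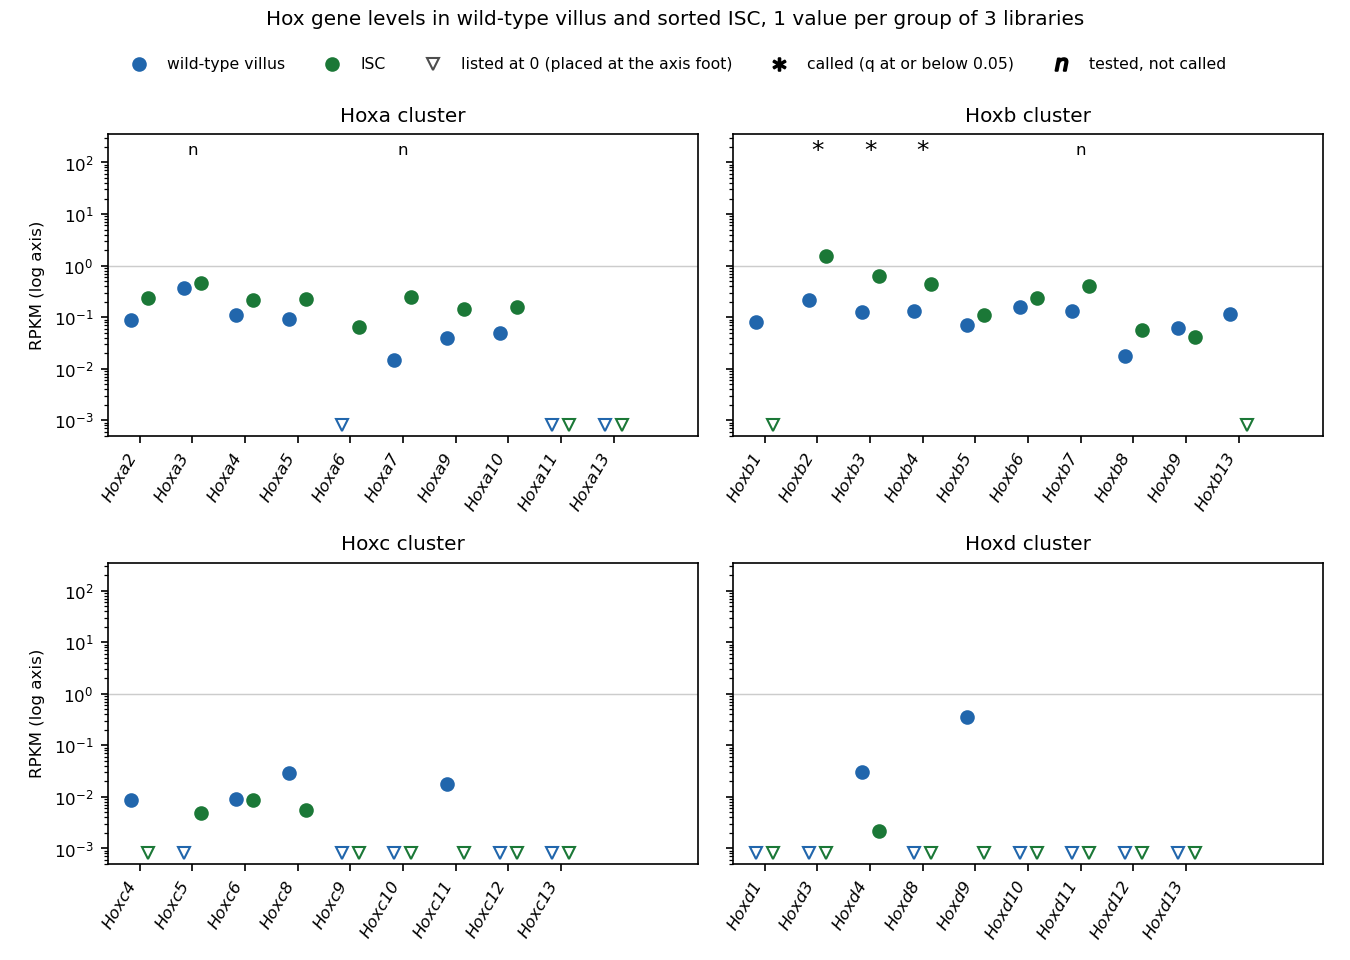
Levels of 38 Hox genes in wild-type villus and ISC, 1 panel per cluster with genes along the horizontal axis and RPKM on a log vertical axis. Each point is the authors' value for a group of 3 libraries, open triangles at the foot are listed at 0, stars mark called genes and n marks genes tested and not called. Hoxb2, Hoxb3 and Hoxb4 stand higher in ISC, and Hoxb2 in ISC is the single value above 1 RPKM.

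The same lists of cofactors and regulators were compared between villus and ISC, where 30.5% of all tested genes were called higher and 32.3% lower in villus. Of 9 tested TALE genes 2 were higher and 5 lower in villus. Tgif2, a repressor of this family, stood at 0.386 RPKM in villus against 4.17 RPKM in ISC (q = 7.45e-09 in the authors' deposited table). Meis2 stood at 1.17 RPKM in villus against 0.362 RPKM in ISC, and Meis3 stood at 0.348 RPKM in villus against 1.45 RPKM in ISC, both called, so Meis2 and Meis3, which both rose in Eed-null villus, lay in opposite directions here. Mnx1, a homeobox gene linked to the ancestral clusters, stood at 0.323 RPKM in villus against 5.29 RPKM in ISC (q = 4.18e-13 in the authors' deposited table). Of the 9 Trithorax and MLL complex genes 6 were called lower in villus and 0 higher, and of 11 PRC2 genes 7 were called lower and 2 higher. Cdx1 stood at 45.1 RPKM in villus against 84.1 RPKM in ISC (q = 0.000244 in the authors' deposited table), whereas Cdx2 was not called at 70.9 RPKM in villus against 65.0 RPKM in ISC. The cluster neighbour Ttll6, which rose in Eed-null villus, stood at 0.0735 RPKM in villus against 0.892 RPKM in ISC (q = 2.13e-06 in the authors' deposited table). Of the 24 neighbours 3 were called higher and 6 lower in villus.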

How the data were processed

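RNA was sequenced as polyadenylated TruSeq V2 libraries, 75 bp single-end, per the labels' protocols; 9 of the 23 samples were used, and the 14 chromatin samples were not analysed here. In the authors' deposited tables each group has 1 RPKM value: per the file headers the wild-type villus and ISC table is in RPKM. The Eed-null table names no unit; its wild-type villus values are those of the first divided by 1.16193 (range 1.16192 to 1.16194, 10353 genes), so the tables were scaled separately and comparisons stay inside 1 table. Per the submitters' processing notes, which state no roles, the tools were Bowtie, TopHat2 2.0.6, Cufflinks 2.0.1, Cuffdiff and SICER 1.1 with build mm9; for the annotation, nothing is given in the sources used here. Each p-value and q-value is the authors', per the file headers, and in the Eed-null table q equals a Benjamini-Hochberg adjustment over tested genes to within 8.02e-05; the adjustment code was tested on simulated data. The labels number each group's libraries as biological replicates; without values per library no model was fitted and depth is unknown.

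Computed here with Python 3.11.15, pandas 2.3.3, numpy 2.4.6 and matplotlib 3.10.9 were folds without pseudocount (none against a listed 0, which may be a failed estimate), differences of log2(RPKM + 1), sums and counts. All members have a value or a place in a count, though some genes, 1 member included, are not reported here by name; called members, Eed, cluster surroundings and up to 4 called members per list are named, and other list members, such as Car1 and Kmt2a, were named after their values were seen. Members, lists and rules were chosen with earlier results of these data known. Alternatives were other thresholds, pseudocounts, level filters, an own adjustment of the authors' p over all 22517 named genes, and leaving out members that share a locus entry.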

Additional observations from a re-analysis of the deposited data

How the results depend on the processing

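No paired analysis was possible because the tables hold 1 value per group, and for the same reason no replicate could be left out. Of the 12 Hox genes called higher in Eed-null villus, 7 remained with at least 1 RPKM required in the higher group, all 7 of those tested (background 6.92%). All Hox genes were under 0.351 RPKM in wild-type villus, so this filter kept only members far higher in Eed-null villus and largely fixed that count. Backgrounds here are not restricted to tested genes low in wild-type villus, of which 50.2% were called higher at the main rule. An own adjustment over all named genes called 14 (background 4.26%): 11 of the 12, plus Hoxc9, Hoxc13 and Hoxd13, with Hoxb5 lost at q = 0.0580. Counts were 10 at q of 0.01 (background 5.80%), with Hoxb5 and Hoxc11 lost, 12 at 0.1 (9.21%) and 12 with at least a 2-fold difference (6.60%). Without members that share a locus entry the count was 10 (8.62%), with Hoxa11 and Hoxd4 left out and no called gene in Hoxd. Under each of these alternatives 0 were called lower. Between villus and ISC, the 3 lower calls became 1 with at least 1 RPKM (Hoxb2; background 33.0%), 2 at q of 0.01 (27.1%), 4 at 0.1 (adding Hoxa7; 35.2%) and stayed 3 with at least a 2-fold difference (25.7%), with the own adjustment (17.8%) and without shared locus entries (33.7%). The 0 higher calls became 1, Hoxd9, with the own adjustment (18.0%). The median Hox difference of 0.27 in Eed-null villus became 1.42 with a pseudocount of 0.1 and 3.37 with 0.01, by the construction of the scale. The villus and ISC median of 0.00 became -0.14 over the 15 members at 0.1 RPKM or more. Hox genes at or above the level of 1 RPKM, 7 in Eed-null villus and 1 in ISC, numbered 13 in Eed-null villus and 2 in ISC at 0.5 RPKM, and 5 in Eed-null villus and 0 in ISC at 2 RPKM. Depth is unknown, and a level below 0.351 RPKM was never tested in the Eed-null comparison, so a Hox gene there is not shown to be unchanged.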

Other observations

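Eed-null villus and ISC were never compared within a table. Multiplying the Eed-null values by 1.16193, the ratio of the shared wild-type villus group, puts them beside ISC on the scale of the first table, with no test. On that scale Hoxb13 had 95.6 RPKM in Eed-null villus against a listed 0 in ISC, Hoxa10 had 5.90 RPKM in Eed-null villus and 0.158 RPKM in ISC, and Hoxb9 had 2.43 RPKM in Eed-null villus and 0.0414 RPKM in ISC. Hoxa13, Hoxc11 and Hoxa11 had 3.98, 4.12 and 1.03 RPKM in Eed-null villus against a listed 0 in ISC for each. Lower values in Eed-null villus than in ISC were listed for Hoxa4, Hoxb2, Hoxb3 and Hoxb4. Hoxb2 had 0.125 RPKM in Eed-null villus and 1.55 RPKM in ISC, Hoxb3 had 0.390 RPKM in Eed-null villus and 0.642 RPKM in ISC, Hoxb4 had 0.262 RPKM in Eed-null villus and 0.448 RPKM in ISC, and Hoxa4 had 0.121 RPKM in Eed-null villus and 0.214 RPKM in ISC.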
